A study of Mus musculus with 6 samples.

Results

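The IL-10 and TGF-β axis was followed here through 9 genes, which are the cytokine gene *Il10*, its receptor genes *Il10ra* and *Il10rb*, the ligand genes *Tgfb1*, *Tgfb2* and *Tgfb3*, the receptor genes *Tgfbr1* and *Tgfbr2*, and the TGF-β-induced gene *Tgfbi*. They were taken by symbol from the 23424 genes in the tables, and each symbol matched 1 row in all 6 libraries. The libraries hold bulk RNA-seq counts of tumor-associated macrophages (TAMs) from YUMM1.7 melanomas, 3 from F4/80high TAMs and 3 from F4/80low TAMs. YUMM1.7 cells are a mouse melanoma line with mutant Braf, and F4/80 is a macrophage surface protein encoded by *Adgre1*. Both subsets came from the same kind of animal, wild-type female C57Bl/6J mice given tumor cells into the skin at 8 weeks of age and left untreated until day 21. The cells were sorted as live CD45+CD11b+F4/80+ cells and parted by the strength of F4/80 staining. The study's methods add a lineage-negative gate (Lin-) without listing its markers there, and their staining panel holds antibodies to CD3e, NK1.1 and B220 in 1 color. Such a gate would remove T, NK and B cells, and the CD45 gate would remove fibroblasts. Each library pools tumors within 1 of 3 independent experiments, so that the p-values measure the spread between these pools and not between mice. In such bulk samples, fewer cells of one kind and less RNA per cell cannot be told apart.

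IL-10 is a cytokine that restrains inflammatory gene expression in macrophages. It binds IL-10Rα, which is specific to it, and IL-10Rβ, which other cytokines of the family share, and signals through JAK1, TYK2 and above all STAT3. The TGF-β ligands are secreted in a latent form and are released from it by integrins, thrombospondin and other activators. The active ligand binds TGF-βRII, which recruits and phosphorylates TGF-βRI, and the receptor pair activates SMAD2 and SMAD3. In tumors, both cytokines are known for damping T cell responses and for shaping macrophages toward tissue repair.

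The replicate 3 libraries of both subsets stood apart from the others. A plot in the study's supplement marks replicates 1 and 2 as batch 1 and replicate 3 as batch 2. They were the smallest, with totals of 16045281 and 16204810 counts against 30292061 to 43604373 counts in batch 1. *Lars2*, the mitochondrial leucyl-tRNA synthetase gene, measured 2124 to 3287 CPM (the reads of a gene relative to the normalized library size, so that libraries of unequal depth can be compared) in batch 1, against 189340 and 187990 CPM in replicate 3. The share of counts on protein-coding genes was 97.2% to 97.9% in batch 1, against 89.3% and 89.9% in replicate 3. *Adgre1* measured 273, 539 and 360.3 CPM in F4/80high replicates 1, 2 and 3, and 243, 327 and 183 CPM in F4/80low replicates 1, 2 and 3. It was higher in F4/80high TAMs in 3 of 3 replicate pairs, with a log2 fold change of 0.67 (SE 0.30, edgeR adjusted p = 0.664), and the groups overlapped.

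The first question was whether the axis differed between the subsets, overall and within each experiment. All 9 genes had at least 10 counts in total and were tested with the other protein-coding genes, 14645 in all. None of the 9 passed an adjusted p under 0.05 with an absolute log2 fold change above 1, by edgeR's quasi-likelihood test with batch as a term. The same call was made for 0 (0%) of the 14645 genes, where the lowest adjusted p was 0.434 and 1113 (7.6%) had an unadjusted p under 0.05. Of the 9 genes, 2 had an unadjusted p under 0.05, *Il10* and *Tgfbr2*, and both were higher in F4/80high TAMs, as were 480 (3.28%) of all genes tested, while 633 (4.32%) were lower. With the replicate number as a block, which pairs the subsets within each experiment, edgeR called 76 genes (0.519%), and DESeq2 with batch called 150 (1.02%). Neither set held any of the 9. The median log2 fold change of the 9 was 0.12, with 6 values above 0 and 3 below, against a median of 0.01 over all genes tested that had more than 3 counts in a library of each subset.

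*Il10*, on chromosome 1 (GRCm38, 131019845 to 131024974, plus strand), had the lowest p of the 9. It was counted 919, 826 and 131 times in F4/80high replicates 1, 2 and 3, and 431, 441 and 68 times in F4/80low replicates 1, 2 and 3. These are 23.2, 16.0 and 14.2 CPM in F4/80high TAMs against 10.8, 10.8 and 7.76 CPM in F4/80low TAMs. Each F4/80high library lay above each F4/80low library, which held for 337 (2.3%) of all genes tested, while the reverse held for 424 (2.9%). The means were 17.8 ± 4.77 CPM and 9.81 ± 1.77 CPM (SD, n = 3 each). The log2 fold change was 0.86 (SE 0.30, 95% interval 0.19 to 1.53), or 1.82-fold, with an unadjusted p of 0.0171 and an edgeR adjusted p of 0.534. *Il10* was higher in F4/80high TAMs in 3 of 3 replicate pairs, by 1.10, 0.56 and 0.86 on the log2 scale, as were 2599 (17.7%) of all genes tested. Within batch 1 alone the log2 difference was 0.86, and pair 3 gave the same value. The adjusted p was 0.376 with the replicate block and 0.186 by DESeq2 with batch, so the difference did not pass the correction over all genes under either. These values are of RNA alone. For secreted protein the study reports the opposite direction, with more of the cytokine from the subset that was lower in this transcript. That protein was measured in the supernatant of sorted macrophages cultured overnight, a step not described for the RNA samples. How the RNA and the secreted protein relate was not tested.

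T cells and B cells also make IL-10, and the Lin- gate named above would remove them, but their markers were detected in each library and were read beside *Il10*. The summed level of 11 T and NK cell markers was 1433, 458 and 230.4 CPM in F4/80high replicates 1, 2 and 3, and 499.9, 699 and 116 CPM in F4/80low replicates 1, 2 and 3. It was thus lower in F4/80high TAMs in pair 2, where *Il10* was higher, and moved with *Il10* in pairs 1 and 3. All 10 of the T and NK cell markers tested had a log2 fold change above 0. The B and plasma cell markers summed to 359, 162 and 54.2 CPM in F4/80high TAMs, and to 257, 314 and 39.2 CPM in F4/80low TAMs, again lower in F4/80high TAMs in pair 2, and 5 of the 7 tested had a log2 fold change above 0. The part of these cells in the *Il10* values was not tested.

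**Figure D1:**
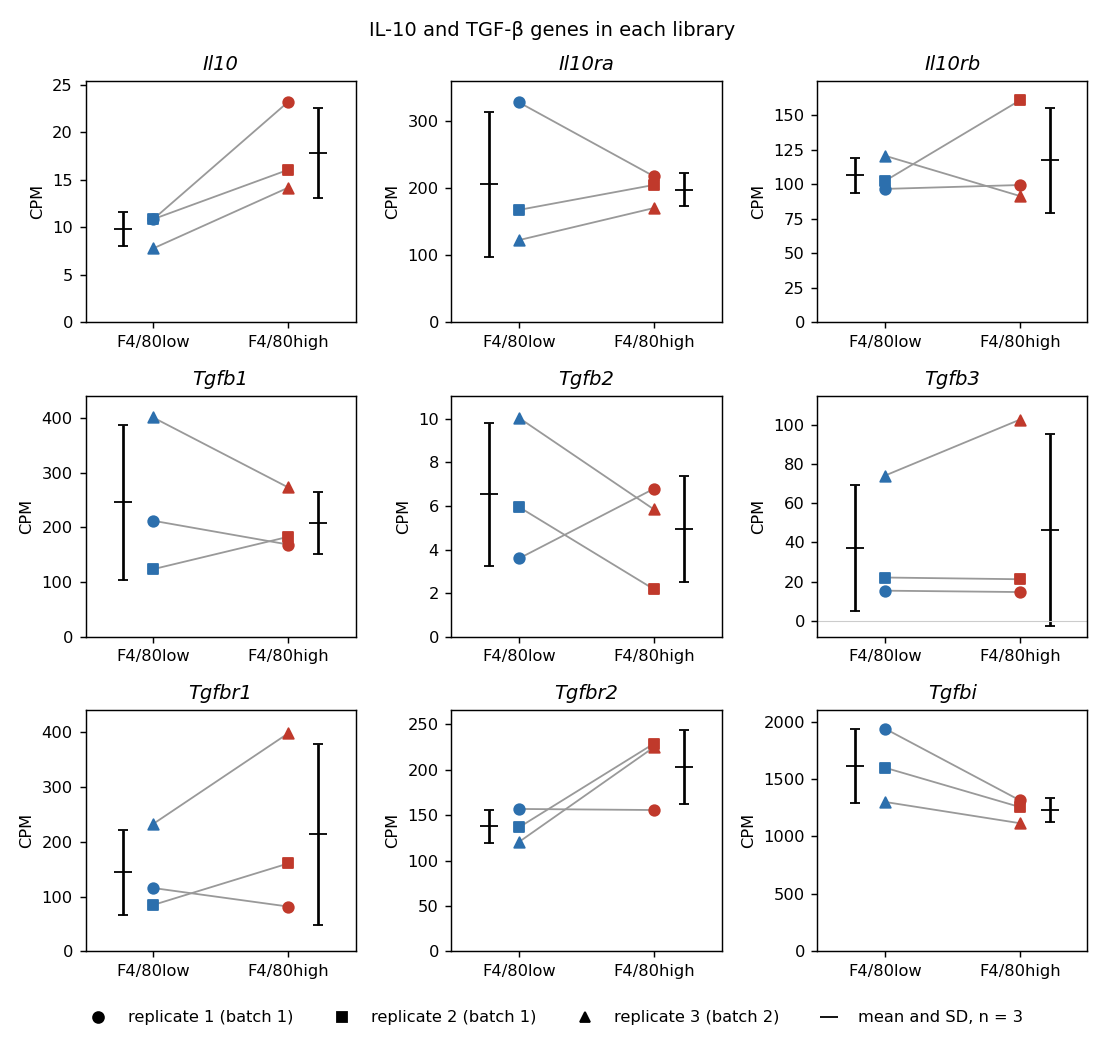
Level of each of the 9 genes in CPM (vertical axes from 0 or below) in the 3 F4/80low and 3 F4/80high libraries, with grey lines joining libraries of the same replicate number and black bars giving the mean and SD of each subset (n = 3). *Il10* is the gene whose subsets do not overlap, and the replicate 3 libraries (triangles) are the highest for *Tgfb1*, *Tgfb3* and *Tgfbr1*.

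The IL-10 receptor genes showed no shared direction. *Il10ra* (chromosome 9, 45253837 to 45269149, minus strand) measured 217, 205 and 170.2 CPM in F4/80high replicates 1, 2 and 3, and 328, 167 and 122 CPM in F4/80low replicates 1, 2 and 3. F4/80low replicate 1 was the highest library and F4/80low replicate 3 the lowest, so the F4/80high values fell inside the F4/80low range. The log2 fold change was 0.00 (SE 0.29, 95% interval -0.66 to 0.67, edgeR adjusted p = 0.999), and the pairs gave -0.59, 0.29 and 0.48. *Il10rb* (chromosome 16, 91406164 to 91425834, plus strand) measured 99.4, 161 and 91.5 CPM in F4/80high TAMs and 96.6, 102 and 121 CPM in F4/80low TAMs. The fit gave a log2 fold change of 0.13 (SE 0.27, 95% interval -0.49 to 0.74, edgeR adjusted p = 0.935), with pairs at 0.04, 0.65 and -0.40. F4/80high replicate 2 carried the *Il10rb* value, which was -0.20 without it. *Il10rb* shares 569 of its 3808 exonic bases with *Gm21970* on the same strand, and the counts do not tell reads of the 2 genes apart there.

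Among the TGF-β ligands, none differed between the subsets beyond the spread between libraries. *Tgfb1* (chromosome 7, 25687002 to 25705077, plus strand), the form that immune cells chiefly make, measured 169, 183 and 273 CPM in F4/80high replicates 1, 2 and 3. In F4/80low replicates 1, 2 and 3 it measured 212, 123 and 401 CPM, so that both the lowest and the highest library were F4/80low. The log2 fold change was -0.14 (SE 0.27, 95% interval -0.75 to 0.47, edgeR adjusted p = 0.930), and the pairs gave -0.33, 0.57 and -0.55. Platelets store TGF-β1, and 7 of their markers were read beside *Tgfb1*. Their summed level was higher in F4/80high TAMs in each pair, at 117, 371 and 30.9 CPM against 39.5, 139 and 12.4 CPM. Of the 7, 3 had a log2 fold change above 0 and 4 below. *Pf4*, which macrophages also express, measured 102, 363 and 26.9 CPM in F4/80high replicates 1, 2 and 3, and 17.3, 122 and 1.83 CPM in F4/80low replicates 1, 2 and 3. The other 6 platelet markers summed to 14.5, 8.41 and 4.0 CPM in F4/80high TAMs and to 22.2, 17.0 and 10.6 CPM in F4/80low TAMs, lower in each pair. The part of platelets in the *Tgfb1* values was not tested.

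*Tgfb3* (chromosome 12, 86056745 to 86079041, minus strand) measured 14.7, 21.2 and 103 CPM in F4/80high replicates 1, 2 and 3, and 15.4, 22.1 and 74.0 CPM in F4/80low replicates 1, 2 and 3. In replicates 1 and 2 the subsets differed by -0.07 and -0.06 on the log2 scale, and in replicate 3 by 0.47. The edgeR estimate was a log2 fold change of 0.12 (SE 0.27, 95% interval -0.50 to 0.73, edgeR adjusted p = 0.943). *Tgfb2* (chromosome 1, 186622792 to 186705989, minus strand) was the scarcest of the 9 genes, with 269, 112 and 54 counts in F4/80high TAMs and 143, 242 and 88 counts in F4/80low TAMs. These are 6.79, 2.18 and 5.84 CPM against 3.59, 5.95 and 10.04 CPM. The order of the subsets turned from pair to pair, at 0.91, -1.43 and -0.78 on the log2 scale. The subsets gave a log2 fold change of -0.31 (SE 0.52, 95% interval -1.50 to 0.87, edgeR adjusted p = 0.917), and the interval of *Tgfb2* was the widest of the 9. It was -0.03 without F4/80high replicate 2 and -0.09 without either replicate 3 library. On the opposite strand, *Tgfb2* overlaps 1 gene over 2.14% of its exonic bases and *Tgfb3* overlaps 2 genes over 4.82% and 7.6%, and no source used here gives the use of strand in counting.

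Both TGF-β receptor genes were higher in F4/80high TAMs in replicates 2 and 3 and not in replicate 1. *Tgfbr2* (chromosome 9, 116084293 to 116175360, minus strand) encodes the ligand-binding receptor. It measured 156, 229 and 225 CPM in F4/80high replicates 1, 2 and 3, and 157, 137 and 120.5 CPM in F4/80low replicates 1, 2 and 3. The lowest F4/80high library lay just below the highest F4/80low library, and both were of replicate 1. Between the subsets, the log2 fold change was 0.56 (SE 0.25, 95% interval 0.01 to 1.11), or 1.47-fold, with an unadjusted p of 0.0480 and an edgeR adjusted p of 0.650. The pairs gave -0.01, 0.75 and 0.90, and batch 1 alone gave 0.39. The adjusted p was 0.475 with the replicate block and 0.412 by DESeq2 with batch.

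*Tgfbr1* (chromosome 4, 47353222 to 47414931, plus strand) encodes the signalling receptor. It measured 81.8, 160.4 and 398 CPM in F4/80high replicates 1, 2 and 3, and 116, 84.6 and 233 CPM in F4/80low replicates 1, 2 and 3. The replicate 3 libraries were the highest of each subset. The edgeR estimate was a log2 fold change of 0.44 (SE 0.30, 95% interval -0.23 to 1.11, edgeR adjusted p = 0.737), and the pairs gave -0.50, 0.92 and 0.78. Without F4/80high replicate 2 the value was 0.14.

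*Tgfbi* (chromosome 13, 56609523 to 56639562, plus strand), which encodes a secreted extracellular matrix protein induced by TGF-β, was lower in F4/80high TAMs in 3 of 3 pairs, as were 2341 (16%) of all genes tested. It was counted 52073, 64658 and 10319 times in F4/80high replicates 1, 2 and 3, and 77255, 65045 and 11402 times in F4/80low replicates 1, 2 and 3. These are 1314, 1256 and 1116 CPM against 1939, 1599 and 1301 CPM. The subsets overlapped, since F4/80low replicate 3 lay below F4/80high replicate 1. The subsets gave a log2 fold change of -0.38 (SE 0.21, 95% interval -0.86 to 0.10, edgeR adjusted p = 0.699), and the pairs gave -0.56, -0.35 and -0.22. Batch 1 alone gave -0.46. With the replicate block the unadjusted p was 0.0515 and the edgeR adjusted p 0.507. The summed level of 9 fibroblast markers was also lower in F4/80high TAMs in each pair, at 1250, 489 and 1558 CPM against 1432, 1145 and 1940 CPM. The summed level of 10 neutrophil markers was lower as well, at 2147, 934 and 753 CPM against 4908, 3137 and 1535 CPM. All 9 fibroblast and all 10 neutrophil markers had a log2 fold change below 0. The CD45 gate would remove fibroblasts, and the part of either cell type in the *Tgfbi* values was not tested.

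**Figure D2:**
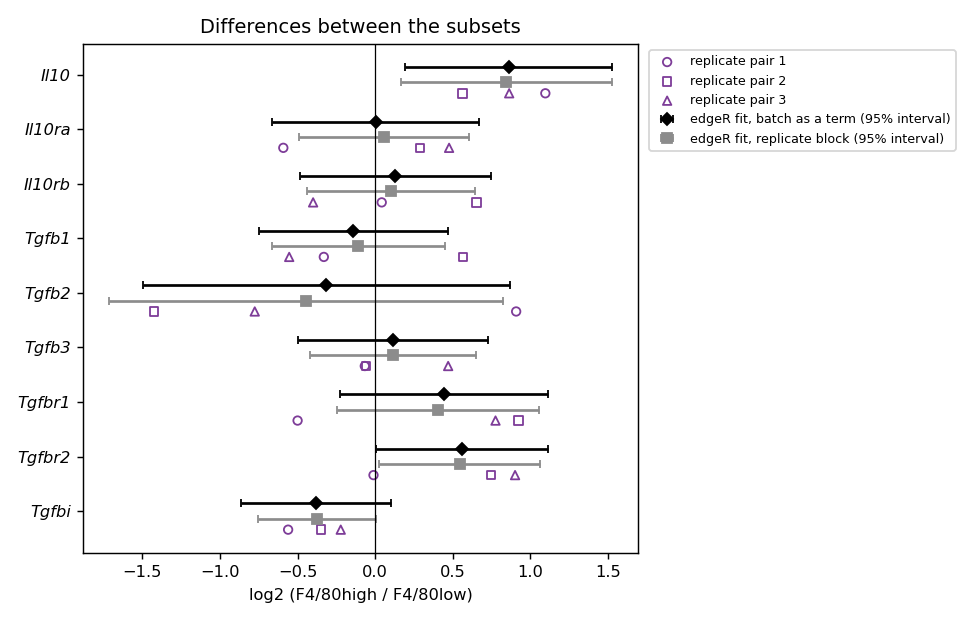
Log2 ratio of F4/80high to F4/80low TAMs for each gene (horizontal axis), with the edgeR estimate and its 95% interval for the fit with batch as a term (black) and with the replicate block (grey), and the ratio within each replicate pair (open symbols). The intervals of *Il10* and *Tgfbr2* lie above 0 in both fits, and *Il10* and *Tgfbi* are the genes whose 3 pairs lie on 1 side of 0.

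To compare genes with each other, CPM were divided by the gene length in the tables. By the geometric mean over the 6 libraries, *Tgfbi* was the highest at 522 CPM per kilobase and above *Tgfb1* in 6 of 6 libraries. It ranked above 99.6% of the 14645 genes tested. *Tgfb1* followed at 82.5 CPM per kilobase, above *Il10ra* (55.0 CPM per kilobase) in 5 of 6 libraries. *Il10ra* was above *Tgfbr2* (34.6 CPM per kilobase) in 6 of 6 libraries, and *Tgfbr2* was above *Il10rb* (28.8 CPM per kilobase) in 5 of 6. *Il10rb* and *Tgfbr1* (23.1 CPM per kilobase) did not hold 1 order, with *Il10rb* above in 4 of 6 libraries and *Tgfbr1* above in both of replicate 3.

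*Il10* itself stood at 9.91 CPM per kilobase, close to *Tgfb3* at 9.01 CPM per kilobase. *Il10* was above *Tgfb3* in all 4 libraries of batch 1 and below it in both of replicate 3. *Tgfb2* was last in 6 of 6 libraries, at 0.888 CPM per kilobase.

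Shares within a library do not depend on how libraries were scaled to each other. *Tgfb1* made up 92.3%, 91.5% and 77.3% of the summed length-adjusted level of the 3 TGF-β ligands in F4/80high replicates 1, 2 and 3. Its share in the F4/80low libraries was 94.1%, 86.5% and 86.9% in the same order. It was the main ligand transcript in each library, and the lowest share was that of F4/80high replicate 3, where *Tgfb3* reached 21.9%. The mean share was 87.0 ± 8.42% in F4/80high and 89.2 ± 4.31% in F4/80low TAMs (SD, n = 3 each), a difference of -2.14 percentage points (two-sided exact permutation test, p = 0.8). With 3 libraries against 3 this test cannot go below 0.1. *Tgfb2* stayed between 0.481% and 1.84%.

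The balance of the receptor transcripts was read the same way. The log2 ratio of *Tgfbr1* to *Tgfbr2* was -1.38, -0.96 and 0.37 in F4/80high replicates 1, 2 and 3. In the F4/80low libraries it was -0.89, -1.14 and 0.50 in the same order. It was below 0 in all 4 libraries of batch 1 and above 0 in both of replicate 3, and the subsets differed by -0.15 (two-sided exact permutation test, p = 0.7). The log2 ratio of *Il10ra* to *Il10rb* was 1.25, 0.47 and 1.02 in F4/80high TAMs and 1.88, 0.83 and 0.14 in F4/80low TAMs. *Il10ra* was thus the more abundant chain in 6 of 6 libraries, and the subsets differed by -0.04 (two-sided exact permutation test, p = 1).

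**Figure D3:**
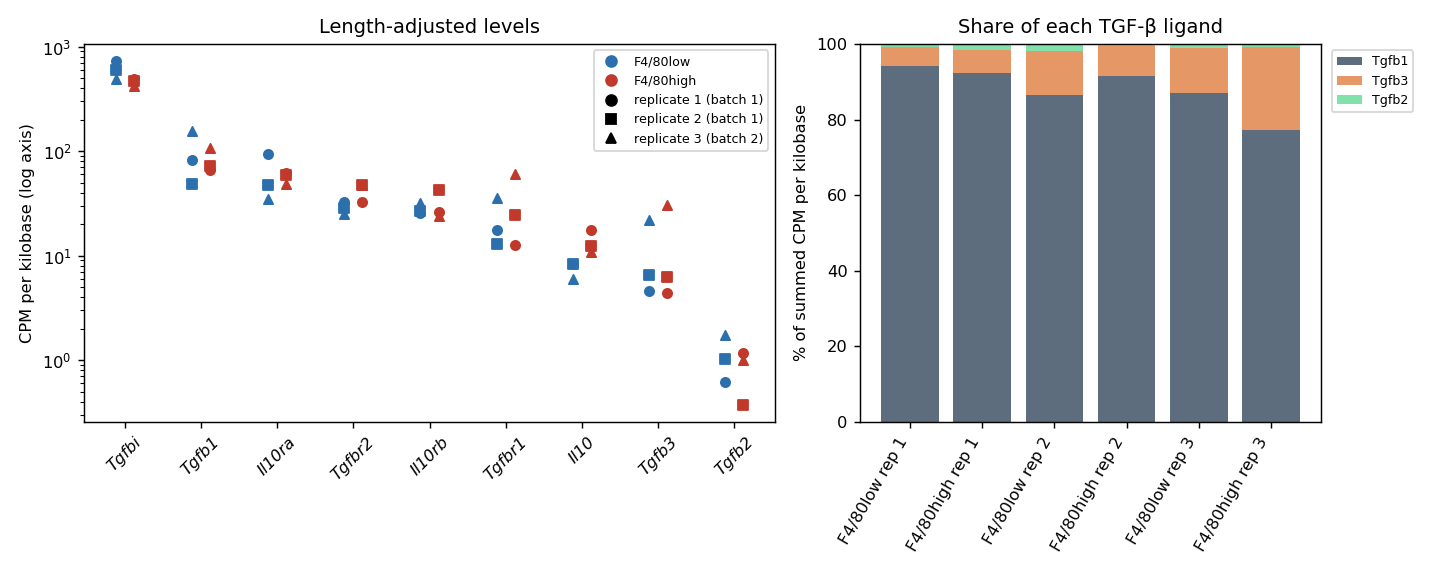
Left, length-adjusted level of each gene in CPM per kilobase (log axis), genes ordered by their geometric mean, with blue points for F4/80low and red points for F4/80high libraries. Right, share of *Tgfb1*, *Tgfb3* and *Tgfb2* in the summed CPM per kilobase of the 3 ligands in each library, where *Tgfb1* holds 77.3% to 94.1%.

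For part of the axis, the log2 difference between experiments was larger than that between the subsets. *Tgfb3*, *Tgfbr1* and *Tgfb1* were higher in the replicate 3 libraries than in those of replicates 1 and 2, and these 3 of the 9 genes passed an adjusted p under 0.05 for the batch term of the edgeR fit. None of the 9 passed in the other direction. Of all genes tested, 2922 (20%) passed as higher in replicate 3 and 3323 (22.7%) as lower. *Tgfb3* was 4.78-fold higher (log2 difference 2.26, SE 0.28, edgeR adjusted p = 0.000241), *Tgfbr1* 2.78-fold (log2 difference 1.47, SE 0.30, edgeR adjusted p = 0.00395) and *Tgfb1* 1.94-fold (log2 difference 0.96, SE 0.28, edgeR adjusted p = 0.0209). The other 6 had batch differences from -0.65 for *Il10ra* to 0.74 for *Tgfb2* on the log2 scale, and none passed. Replicate 3 is 1 experiment, so the batch and that experiment cannot be told apart. The fit also counted the 2 libraries of each experiment, 1 per subset, as independent. The p-values of the batch term, here and below, thus rest on 1 experiment against 2 and do not measure the spread between experiments.

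Beyond the 9 genes, 8 lists of genes that surround them in the pathway were read, which hold 65 distinct genes tested. None of the 65 was called in the edgeR fit with batch. With the replicate block edgeR called 2, *Pmepa1* and *Maf*, both higher in F4/80high TAMs. Over all genes tested that fit called 76 (0.519%).

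Of 12 tested genes that hold TGF-β latent or release it, 0 were higher and 1 was lower at an unadjusted p under 0.05. The median log2 fold change was -0.11 over the 11 that had more than 3 counts in a library of each subset. The lower gene was *Thbs1*, encoding thrombospondin-1, an activator of latent TGF-β. It measured 1079, 1122 and 1806 CPM in F4/80high replicates 1, 2 and 3, and 3396, 1704 and 3833 CPM in F4/80low replicates 1, 2 and 3. The highest F4/80high library lay above the lowest F4/80low library, so the subsets overlapped, yet *Thbs1* was lower in each pair, by -1.65, -0.60 and -1.09 on the log2 scale. The fit gave a log2 fold change of -1.17 (SE 0.28, edgeR adjusted p = 0.440). The adjusted p was 0.0669 with the replicate block and 0.0142 by DESeq2 with batch, which called it. *Itgb5* and *Itgav*, which encode subunits of the TGF-β-activating integrin αvβ5, had log2 fold changes of 0.55 and 0.41, each higher in 3 of 3 pairs (edgeR adjusted p = 0.690 and 0.694). *Itgb5* was 0.19 without F4/80high replicate 2. *Ltbp1*, a latent TGF-β binding protein, was 30.3 to 53.1 CPM in batch 1 and 3581 and 3903 CPM in replicate 3. Between the subsets it stood at -0.43 on the log2 scale (edgeR adjusted p = 0.696).

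Of the 5 further TGF-β receptors and co-receptors, none had an unadjusted p under 0.05, and the median log2 fold change was 0.09. *Acvrl1*, which encodes the type I receptor ALK1, had the largest difference at 0.61 (SE 0.32, edgeR adjusted p = 0.696), with 31.1, 37.9 and 33.7 CPM in F4/80high and 30.6, 30.4 and 11.6 CPM in F4/80low TAMs. Each F4/80high library lay above each F4/80low library, with a narrow gap between the subsets, and this held for 337 (2.3%) of all genes tested. The pairs gave 0.03, 0.32 and 1.53, and the value was 0.18 without either replicate 3 library. *Tgfbrap1*, a receptor-associated protein, stood at 0.32. The decoy receptor *Bambi* and the co-receptor *Tgfbr3* stood at -0.36 and -0.34, and at -0.07 and -0.03 without F4/80high replicate 2. *Tgfbr3* measured 5.85 to 17.0 CPM in batch 1 and 591 and 572 CPM in replicate 3.

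The 12 genes of SMAD signalling and its inhibitors had a median log2 fold change of -0.12, with 0 higher and 1 lower at an unadjusted p under 0.05. The lower gene was *Zfyve9* (SARA), an adaptor that brings SMAD2 and SMAD3 to the receptor, at -0.95 (SE 0.41, edgeR adjusted p = 0.647). It was lower in each pair, by -0.77, -1.62 and -0.76 on the log2 scale. With the replicate block it stood at -1.05, with an adjusted p of 0.200 by edgeR and 0.0306 by DESeq2, which called it among 356 (2.43%) of all genes tested. The ubiquitin ligases *Smurf2* and *Smurf1* stood at 0.20 and -0.42, and the inhibitory SMAD gene *Smad7* at 0.08 (edgeR adjusted p = 0.851, 0.743 and 0.972). For the batch term, 7 of the 12 passed as higher in replicate 3 and 2 as lower, where 20% and 22.7% of all genes tested did. *Skil*, a SMAD repressor that TGF-β induces, measured 175 to 355 CPM in batch 1 and 3068 and 3952 CPM in replicate 3.

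Of 9 TGF-β target genes, 1 was higher and 1 lower at an unadjusted p under 0.05, and the median log2 fold change was -0.31. *Pmepa1*, which encodes a membrane protein that TGF-β induces and that restrains SMAD signalling, measured 128, 341 and 1739 CPM in F4/80high replicates 1, 2 and 3. In F4/80low replicates 1, 2 and 3 it measured 44.6, 142 and 612 CPM, so that each F4/80high library was above its partner while the subsets overlapped across experiments. The pairs gave 1.52, 1.26 and 1.51 on the log2 scale. Between the subsets, the log2 fold change came to 1.39 (SE 0.47, edgeR adjusted p = 0.533) with batch as a term, and 1.43 (SE 0.18, edgeR adjusted p = 0.0272) with the replicate block. DESeq2 with batch gave an adjusted p of 0.119. *Klf10*, a transcription factor gene that TGF-β induces, stood at -0.58 (edgeR adjusted p = 0.743), and at -0.06 without F4/80low replicate 1. For the batch term, 6 of these 9 genes passed as higher in replicate 3 and 2 as lower, against 20% and 22.7% of all genes tested. *Smad7*, *Skil* and *Tgif1*, among those higher, were already counted in the SMAD list.

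The rest of the IL-10 family was scarce. Of its 11 further ligand and receptor genes, 5 were matched in the tables and 4 had 10 or more counts in total. *Il22* had 0, 0 and 0 counts in F4/80high replicates 1, 2 and 3, and 1, 26 and 0 counts in F4/80low replicates 1, 2 and 3. *Il20rb* had 2 to 134 counts in a library and *Ifnlr1* 0 to 141, with log2 fold changes of 1.20 (SE 0.97) and -1.26 (SE 1.46). *Il20rb* was 0.01 without either replicate 3 library, and *Ifnlr1* ranged from -3.01 to -0.39 with 1 library left out. None of the 4 had an unadjusted p under 0.05.

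The 6 genes that carry the IL-10 receptor signal are kinases such as *Jak1* and *Tyk2* and STAT factors. All 6 had a log2 fold change below 0, as did 7210 of all 14645 genes tested. Their median was -0.34, and none had an unadjusted p under 0.05. *Jak1* stood at -0.02 and *Tyk2* at -0.09, and each was higher in F4/80high TAMs in 2 of 3 pairs. *Stat3*, the main transcription factor of the pathway, measured 294, 229 and 296 CPM in F4/80high and 412, 250.5 and 347 CPM in F4/80low TAMs, lower in each pair. The fit put it at -0.30 on the log2 scale (SE 0.26, edgeR adjusted p = 0.790), and it was -0.06 without F4/80low replicate 1. *Stat5b* was lower in each pair too, at -0.46 (SE 0.23, edgeR adjusted p = 0.693).

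Of 10 IL-10 target genes, 0 were higher and 2 were lower at an unadjusted p under 0.05, the median log2 fold change was -0.33, and 5 were lower in each pair, against 16% of all genes tested. The summed neutrophil and eosinophil markers were lower in each pair too, by -1.19, -1.75 and -1.03 and by -1.04, -2.72 and -1.23 on the log2 scale, and their part in this list was not tested. *Il1rn*, encoding the IL-1 receptor antagonist, measured 332, 366 and 487 CPM in F4/80high replicates 1, 2 and 3, and 547, 551 and 792 CPM in F4/80low replicates 1, 2 and 3. Each F4/80high library lay below each F4/80low library, which held for 424 (2.9%) of all genes tested. The edgeR estimate was a log2 fold change of -0.67 (SE 0.21, edgeR adjusted p = 0.522). *Nfil3*, a transcription factor that IL-10 induces, stood at -0.75 (SE 0.26, edgeR adjusted p = 0.539). With the replicate block the adjusted p of *Il1rn* was 0.175 by edgeR and 0.0359 by DESeq2. That of *Nfil3* was 0.194 by edgeR and 0.0397 by DESeq2. Neither was called, since their log2 fold changes did not pass 1 in size. *Hmox1* (heme oxygenase 1) and *Socs3*, the feedback inhibitor of STAT3 signalling, had the lowest p of the genes above 0, at 0.59 and 0.22, and each was higher in 2 of 3 pairs (edgeR adjusted p = 0.742 and 0.891). These genes answer to other signals as well, *Il10* had the opposite sign to *Il1rn* and *Nfil3*, and the link between them was not tested.

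Among 10 transcription factor genes known to act on *Il10*, 1 was higher and 2 were lower at an unadjusted p under 0.05, the median log2 fold change was -0.32, and 6 were lower in each pair, again against 16% of all genes tested. *Maf*, the gene of c-MAF, which activates *Il10* in macrophages, measured 86.4, 161 and 1712 CPM in F4/80high replicates 1, 2 and 3. In F4/80low replicates 1, 2 and 3 it measured 27.7, 70.9 and 679.6 CPM. It was higher in each pair, by 1.64, 1.18 and 1.33 on the log2 scale, and 13.8-fold higher in replicate 3 than in batch 1. The subsets gave a log2 fold change of 1.33 (SE 0.37, edgeR adjusted p = 0.503) with batch as a term and 1.38 (SE 0.19, edgeR adjusted p = 0.0300) with the replicate block, and DESeq2 with batch gave an adjusted p of 0.0502. *Prdm1*, the gene of BLIMP-1, stood at 0.25 (edgeR adjusted p = 0.886). The lower genes were *Cebpb* at -0.84 (SE 0.24, edgeR adjusted p = 0.504) and *Sp1* at -0.64 (SE 0.25, edgeR adjusted p = 0.611). With the replicate block the adjusted p of *Cebpb* was 0.0825 by edgeR and 0.00208 by DESeq2, and 0.0524 by DESeq2 with batch. *Cebpb* was not called, since its log2 fold change did not pass 1 in size. *Cebpb* measured 841, 569 and 427 CPM in F4/80high TAMs and 1474, 1133 and 717 CPM in F4/80low TAMs.

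**Figure D4:**
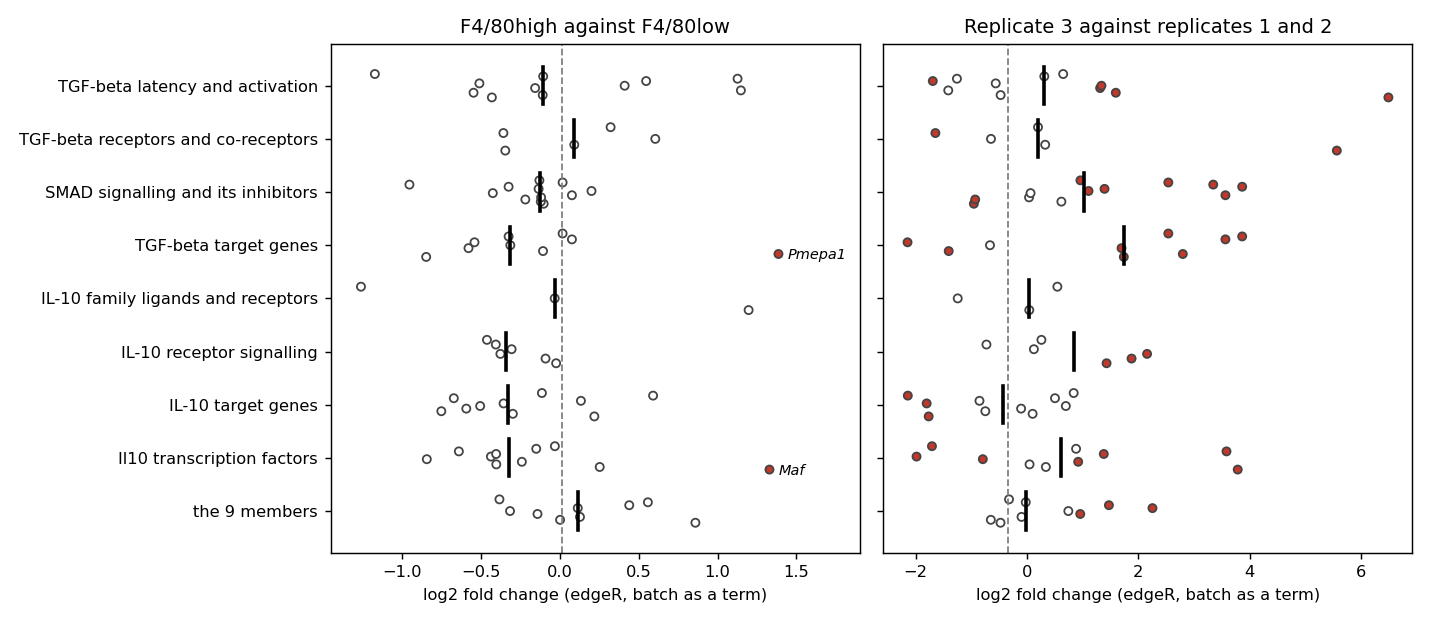
Log2 fold change of each tested gene of the 8 lists and of the 9 genes of the axis (points), with the list's median (black bar) and the median of all genes tested (dashed line), between the subsets on the left and between replicate 3 and the other replicates on the right. Filled points on the left passed in the fit with the replicate block, which are *Pmepa1* and *Maf*, and filled points on the right had a batch adjusted p under 0.05. Genes that had no library above 3 counts in one of the subsets, such as *Il22*, are not drawn, and a gene held by 2 lists is drawn in both.

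The genes whose levels followed *Il10*, *Tgfb1* and *Tgfbi* most closely were found by Pearson's r of log2 CPM over the 6 libraries with batch removed, among 10072 genes. For *Il10* they were *Dtx3* (r = 0.996), *Usp46* (r = 0.989) and *Myc* (r = 0.987), and 97 genes had an r above 0.9. For *Tgfb1* they were *Hbs1l* (r = 0.998), *Nr1d1* (r = 0.991) and *Ift140* (r = 0.991), and 171 genes had an r above 0.9. For *Tgfbi* they were *Ltf*, a neutrophil granule gene (r = 0.998), *Mboat7* (r = 0.993) and *Zfp445* (r = 0.993), with 266 genes above 0.9. The 6 points share 3 experiments, and the removal of batch sets the replicate 3 libraries opposite each other, so that these values are a description.

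Markers of other cells were present in both subsets. Of 10 macrophage markers, 8 had a log2 fold change above 0, and their summed level was 5801 to 29242 CPM in F4/80high and 5118 to 12563 CPM in F4/80low TAMs. All 10 eosinophil markers were below 0, with sums of 99.2 to 197 CPM against 277 to 652 CPM, and so were all 8 of mast cells and basophils, with 9.52 to 108 CPM against 44.7 to 424 CPM. The highest mast cell and basophil sum of each subset was that of replicate 3. Most of its counts were of *Kit*, with 845 in F4/80high and 3366 in F4/80low TAMs. Of 9 dendritic cell markers 8 were below 0, with sums of 85.8 to 335 CPM against 158 to 565 CPM. All 5 melanoma cell markers tested were above 0, with 35.8 to 195 CPM against 34.3 to 120.2 CPM, and *Mlana* had at most 3 counts in each library. Endothelial markers summed to 32.1 to 82.4 CPM against 39.1 to 87.7 CPM, with *Tek* at 3 counts or fewer, and keratinocyte markers to 5.26 to 8.40 CPM against 6.40 to 10.04 CPM, with *Dsp* at 0. What these cells contributed to the levels of the 9 genes was not tested.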

How the data were processed

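Bulk poly-A RNA-seq was available for 6 libraries, F4/80high and F4/80low TAMs in 3 replicates each. The authors deposited 1 table per library with raw read counts, gene length and biotype, with no normalization. The aligner, counter, annotation and use of strand are not given in the sources used here. Positions and protein-coding status were taken from GENCODE M21 (GRCm38), which held 99.4% of the gene IDs.

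The 14645 protein-coding genes with 10 or more counts over all libraries were tested with edgeR 4.0.16 (R 4.3.3), by the quasi-likelihood test after TMM normalization, with subset and batch as terms and Benjamini-Hochberg adjustment over all genes. Calls required a log2 fold change beyond 1 in either direction and an adjusted p under 0.05. CPM refer to the normalized library size. Pair ratios used a prior count of 2, and batch was removed with limma 3.58.1 for the likeness of genes. Shares and ratios were compared by two-sided exact permutation tests, 3 comparisons in all. DESeq2 1.42.0, other normalizations, filters, gene sets, the replicate block, batch 1 alone and the leaving out of each library were tried.

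The replicate number marks the experiment, which pairs the libraries. The correlation of same-numbered libraries, as deviations from the mean of their subset over 10072 genes, was 0.745, 0.729 and 0.907, and 0.242 within batch 1. The deviations over all replicates hold the batch difference, so only the value within batch 1 bears on pairing apart from batch. The fits were checked on simulated counts. Named genes were the 9 genes of the axis, *Adgre1*, and from each list up to 2 genes of lowest p in each direction and any called, though some list genes are counted but not reported by name here. The 3 genes most like *Il10*, *Tgfb1* and *Tgfbi* were named too. *Lars2*, *Skil*, *Pf4*, *Jak1*, *Tyk2*, *Tgif1*, *Mitf*, *Gpnmb* and *Kit* were named after their values were seen. The 9 genes and the lists were chosen with earlier results of these data known. Counts of at least 54 for each of the 9 genes in each library leave the spread between libraries as the main limit on precision.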

Additional observations from a re-analysis of the deposited data

How the results depend on the processing

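The number of the 9 genes called was 0 under each alternative run, while the count over all genes moved from 0 to 76 with the replicate block in edgeR, 150 by DESeq2 with batch and 356 by DESeq2 with the block. Leaving out 1 library gave 0 to 57 calls, with the 57 without F4/80high replicate 1. In the 18 alternatives per gene, *Il10* (0.69 to 0.98), *Tgfbr1* (0.14 to 0.72), *Tgfbr2* (0.39 to 0.75), *Tgfbi* (-0.46 to -0.28) and *Tgfb2* (-0.98 to -0.03) held their direction. The smallest adjusted p among them was 0.186 for *Il10*. With 1 library left out, the direction turned for *Il10ra* (-0.23 to 0.39), *Il10rb* (-0.20 to 0.39), *Tgfb1* (-0.395 to 0.066), *Tgfb3* (-0.062 to 0.328), *Smad7* (-0.39 to 0.29), *Hmox1* (-0.18 to 0.92), *Socs3* (-0.025 to 0.633) and *Prdm1* (-0.013 to 0.685). In batch 1 alone it turned for *Il10ra* (-0.23), *Tgfb1* (0.066), *Tgfb3* (-0.061) and *Prdm1* (-0.011), and with no batch term for *Il10ra* (-0.06), *Tgfbr3* (0.023) and *Smad7* (-0.20). None of these passed a test, and the cause was not tested. *Smurf1* shrank from -0.42 to -0.07 without either replicate 3 library. The subset difference in the *Tgfb1* share ranged from -4.76 to 2.72 percentage points with 1 library left out, that in log2 *Tgfbr1* over *Tgfbr2* from -0.66 to 0.36 and that in log2 *Il10ra* over *Il10rb* from -0.45 to 0.43. The exact test of the pair differences, which stands for the replicate block there, gave p = 0.75, 0.75 and 1, and 3 pairs cannot go below 0.25. With the block *Pmepa1* and *Maf* were called by both tools, and *Thbs1* and *Zfyve9* by DESeq2 alone. DESeq2 with batch called *Thbs1* as well, so the block did not change that call. Beside *Pmepa1*, *Maf* and *Zfyve9*, the block changed no call of the 9 genes or of a list gene named here. Leaving out both replicate 3 libraries leaves 2 libraries in each subset.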
